A study of Gallus gallus with 6 samples.

Results

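Small leucine-rich proteoglycans are secreted proteins built from leucine-rich repeats, most of them carrying chondroitin, dermatan or keratan sulfate chains. They bind collagen fibrils and influence how thick and how regularly spaced the fibrils become, and some also bind growth factors of the transforming growth factor beta family. In skeletal muscle they are made mainly by fibroblasts of the connective tissue sheaths and by cells of tendon and myotendinous junction. The genes described here were chosen by name, as FMOD, BGN, DCN, LUM, OGN, ASPN, PRELP and KERA. Of these 8 symbols, 7 had a row among the 18239 genes of the table, and no row was listed as ASPN (asporin). Whether the row listed as BGN holds asporin was not tested.

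The samples were soleus, a leg muscle, and pectoralis major, the breast muscle, of broiler chickens (Gallus gallus) aged 180 days, with 3 RNA-seq libraries per muscle. No treatment or genotype is named for either group, and both share breed, age and collection right after slaughter, from the left and right sides. The series calls the fibre type make-up of the muscles very different and asks which genes differ with it. The labels do not say if each library is a different bird, so a p-value here measures spread among these 6 samples alone, and that spread may be technical. Levels are FPKM, fragments normalized to gene length and to the library total, so that levels of different genes can be compared. Library totals were 36309597 to 39079981 fragments. Fibre markers followed the labels: the slow myosin light chain MYL3 was at 4688 ± 1218 FPKM in soleus against 0.116 ± 0.116, and the fast myosin heavy chain MYH1E at 4.31 ± 2.96 against 4823 ± 73.4 (mean ± SD, n = 3 libraries per muscle here and throughout).

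The family was present in both muscles, with a summed level that was higher in every soleus library, and 2 of its genes, FMOD and the gene listed as BGN, stood out with differences of several fold. The summed FPKM of the 7 genes was 295, 223 and 219.9 in soleus libraries 1 to 3, against 136, 147 and 151 for pectoralis major. The muscles did not overlap, as held in this direction for 45% of tested genes, and the ratio of the means was 1.70. These sums are of FPKM as deposited and were not taken under the other scalings described below. Because these are bulk tissue samples, more cells of a type and more RNA per cell cannot be told apart. All 6 members other than KERA reached at least 1 FPKM in all 6 libraries and were tested.

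Each log2 difference is soleus minus pectoralis major, of log2(FPKM + 1), a scale that understates changes of low genes, and was tested with limma across all genes and adjusted by the Benjamini-Hochberg method with a threshold of 0.05. Of the 6 tested members, 4 were higher in soleus (FMOD, BGN, DCN and PRELP) and 0 were lower; of all 9616 tested genes, 40% were called higher and 17.4% lower, 57.3% in all. The libraries of the muscles did not overlap for 3 members, FMOD, BGN and DCN, all higher in soleus; this held in that direction for 45% of tested genes and in either direction for 64.9%. A call of at least 2-fold was made for 2 members, FMOD and BGN, and for 9.44% of all tested genes. The median difference of the 6 members was 0.63, beside 0.26 for all tested genes. With the replicate number as a block in the fit, LUM and OGN passed as well and all 6 were called, where 43.8% of all genes were called higher and 19.5% lower.

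**Figure D1:**
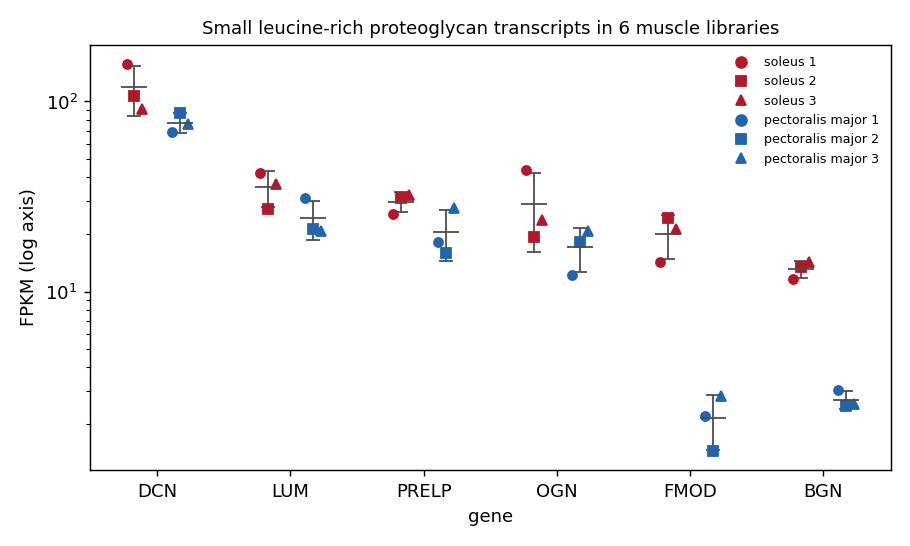
FPKM of the 6 tested genes (log axis) in each library; symbols mark soleus (red) and pectoralis major (blue) libraries 1 to 3, and bars the mean ± SD of each muscle. FMOD and BGN sit between 11.7 and 24.5 FPKM in soleus and between 1.45 and 3.02 in pectoralis major, while LUM, PRELP and OGN overlap between muscles.

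Decorin, encoded by DCN (gene number 417892), is the archetype of class I of the family and binds collagen I fibrils through a protein core that usually carries a single glycosaminoglycan chain. It was the most abundant member in every library. In soleus libraries 1 to 3 the level of DCN was 157, 107 and 91.3 FPKM, against 69.0, 87.3 and 75.9 in the pectoralis major libraries. The lowest soleus library lay just above the highest pectoralis major library, so the muscles did not overlap but came close, and soleus library 1 stood above the rest. The means were 119 ± 34.6 and 77.4 ± 9.24 FPKM, a ratio of 1.53. The log2 difference was 0.58 ± 0.20 (SE), with a 95% interval of 0.12 to 1.04 (limma adjusted p = 0.0363). This call was lost without soleus library 1 (difference 0.36, adjusted p = 0.104), soleus library 2 (0.0581), pectoralis major library 1 (0.0984) or pectoralis major library 3 (0.0807), and under median-ratio scaling, where the difference was 0.19 (adjusted p = 0.405).

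The gene listed as BGN, biglycan (gene number 415954), also belongs to class I by its name. Biglycan in mammals binds collagen, members of the transforming growth factor beta family and the dystrophin-associated complex of the muscle fibre membrane. The level of BGN in soleus libraries 1 to 3 was 11.7, 13.5 and 14.3 FPKM, against 3.02, 2.49 and 2.57 in the pectoralis major libraries. Every soleus library was far above every pectoralis major library, and the values within a muscle lay close together. The means were 13.2 ± 1.36 and 2.69 ± 0.287 FPKM, a ratio of 4.89, and the log2 difference was 1.94 ± 0.13 (95% interval 1.63 to 2.24, limma adjusted p = 1.55e-05). Only 203 of the 9616 tested genes had a larger difference in this direction. It stayed between 1.88 and 2.02 with each library left out.

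The name of this row is open to doubt. In the RefSeq gene table of assembly GRCg7b, the gene sits on chromosome 12 between ECM2 and OMD, with OGN next, in a row of genes that in human holds ASPN at that place, while human BGN lies on the X chromosome. The terms deposited for the row include bone mineralization, negative regulation of tooth mineralization and negative regulation of transforming growth factor beta receptor signalling, which are known functions of asporin. No sequence was used here, so whether the row holds biglycan or asporin was not tested, and it is called BGN only because the table lists it so.

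Fibromodulin, encoded by FMOD (gene number 395814), is a class II member with keratan sulfate chains that is abundant in tendon, where it guides collagen fibril growth and cross-linking by lysyl oxidase. It showed the largest difference of the 6 tested members. In soleus libraries 1 to 3 the level of FMOD was 14.2, 24.5 and 21.4 FPKM, against 2.20, 1.45 and 2.83 in the pectoralis major libraries. The lowest soleus library, library 1, still lay far above all pectoralis major libraries. The means were 20.03 ± 5.25 and 2.16 ± 0.691 FPKM, a ratio of 9.26, and the log2 difference was 2.72 ± 0.23 (95% interval 2.20 to 3.25, limma adjusted p = 4.41e-05). Only 90 of the 9616 tested genes had a larger difference in this direction. The FPKM rested on 1507 to 2627 fragments per soleus library, and on 148 to 289 per library of the breast muscle. Counting alone gives a coefficient of variation of 2.16% and 6.76% at these depths, against 26.2% and 32.0% observed between libraries.

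Lumican, encoded by LUM (gene number 417891), is a class II member best known for the regular collagen lattice of the cornea and present in many connective tissues. For LUM the soleus libraries 1 to 3 gave 42.2, 27.1 and 36.7 FPKM, against 30.9, 21.4 and 20.9 in the pectoralis major libraries. Soleus library 2 lay below pectoralis major library 1, so the muscles overlapped. The log2 difference was 0.52 ± 0.20 (95% interval 0.050 to 0.98) and did not pass (limma adjusted p = 0.0572). It passed with the replicate block (adjusted p = 0.00712), when soleus library 2 was dropped (0.0248) and when pectoralis major library 1 was dropped (0.0191), and was 0.14 under median-ratio scaling (adjusted p = 0.618).

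PRELP (gene number 419933) encodes a class II member that binds collagen with its repeats and heparan sulfate with a basic amino-terminal stretch, and has been placed at basement membranes. In soleus libraries 1 to 3 the level of PRELP was 25.6, 31.2 and 32.2 FPKM, against 18.3, 16.0 and 27.5 in the pectoralis major libraries. Pectoralis major library 3 reached into the soleus range, and the other 2 stayed below it. The log2 difference of 0.54 ± 0.20 (95% interval 0.078 to 0.99) passed (limma adjusted p = 0.0473), but with each single library left out it passed only without pectoralis major library 3 (adjusted p = 0.00674) and otherwise had adjusted p of 0.0550 (without soleus library 1) to 0.138 (without pectoralis major library 2). Under median-ratio scaling it was 0.16 (adjusted p = 0.534).

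Keratocan, encoded by KERA (gene number 373995), is the corneal keratan sulfate proteoglycan of class II. It was close to absent from muscle, at 2, 4 and 1 fragments in soleus libraries 1 to 3 against 0 in each pectoralis major library. These counts are the smallest whole numbers that fit the values. In FPKM the soleus values were 0.0139, 0.0274 and 0.00685. A count of 0 in pectoralis major allows up to 0.0216 to 0.0221 FPKM (3 fragments, counting error only). With no filter on low values, the log2 difference of KERA was 0.023 and did not pass (limma adjusted p = 0.197). So few fragments do not settle whether the muscles differ.

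Osteoglycin, also called mimecan and encoded by OGN (gene number 374039), is a class III member of the connective tissue matrix. For OGN the soleus libraries 1 to 3 gave 43.7, 19.4 and 23.9 FPKM, against 12.2, 18.3 and 20.8 in the pectoralis major libraries. Soleus library 1 stood far above the other 5 libraries, and soleus library 2 lay within the pectoralis major range. The log2 difference of 0.68 ± 0.30 (95% interval 0.0034 to 1.35) did not pass (limma adjusted p = 0.0786). It passed narrowly with the replicate block (adjusted p = 0.049996), also when soleus library 2 was dropped (0.0368), and was 0.35 without soleus library 1 (adjusted p = 0.250). Some genes overlap the spans of members in the GRCg7b gene table. Of these, CENPP, over BGN and OGN, averaged 0.270 FPKM in soleus against 0.139. The non-coding genes over FMOD, DCN and PRELP averaged at most 0.157 in either muscle. How fragments shared by overlapping genes were counted was not tested.

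**Figure D2:**
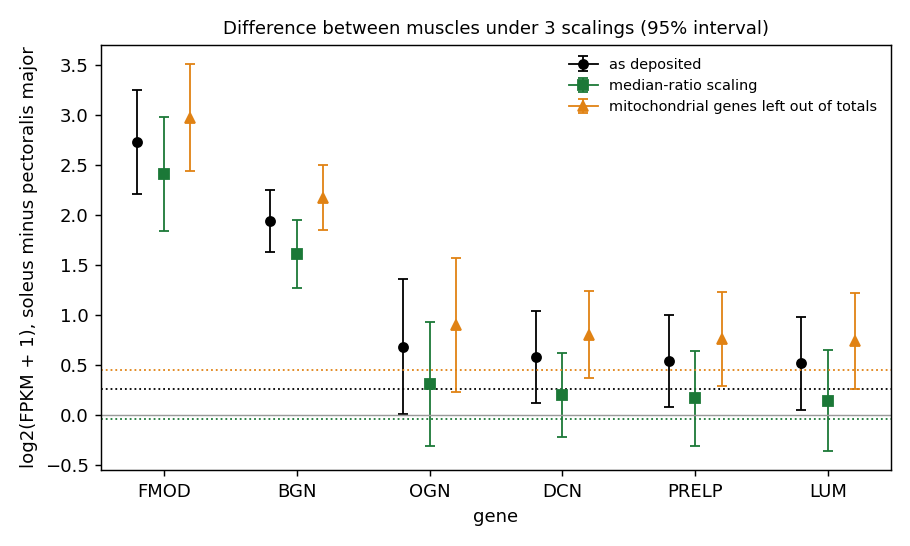
Difference of each tested gene (soleus minus pectoralis major, log2(FPKM + 1)) with its 95% interval from limma, for FPKM as deposited, under median-ratio scaling and with totals that leave out mitochondrially encoded genes; dotted lines mark the median of all tested genes in each case. FMOD and BGN lie at 1.61 or above in all 3, and the intervals of the other 4 genes include 0 under median-ratio scaling.

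The scaling of the libraries bears on the smaller differences. Mitochondrially encoded genes took 19.6 to 23.7% of all soleus fragments but 7.03 to 8.66% of those of pectoralis major. The median over all tested genes moved from 0.26 as deposited to -0.04 under median-ratio scaling, and to 0.45 with totals that leave those genes out. Relative to the median of all genes as deposited, FMOD stood at 2.47 and BGN at 1.68, and OGN, DCN, PRELP and LUM at 0.42, 0.32, 0.28 and 0.26. Under median-ratio scaling 2 members were called, FMOD (2.40, limma adjusted p = 0.000153) and BGN (1.61, adjusted p = 8.98e-05), where 21.1% of all tested genes were called higher and 29.5% lower. With mitochondrially encoded genes left out, LUM (0.74, limma adjusted p = 0.0137) and OGN (0.90, adjusted p = 0.0249) passed too, so that all 6 members were called. Of the 9603 genes tested in that setting, 52.3% were called higher and 12% lower, so calls in soleus were more frequent over all genes as well.

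The order of the levels differed between muscles in the lower part of the family. In both muscles DCN came first with no overlap, followed by LUM, PRELP and OGN, whose ranges overlapped from each to the next. In pectoralis major OGN was separated from BGN and FMOD, which overlapped each other. In soleus OGN, FMOD and BGN overlapped from each to the next, and FMOD was above BGN in 3 of 3 soleus libraries and in 1 of 3 pectoralis major libraries. By mean FPKM over all 18239 genes, DCN ranked 449 in soleus and 668 in pectoralis major, while FMOD ranked 1945 and 6877 and BGN 2740 and 6289.

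**Figure D3:**
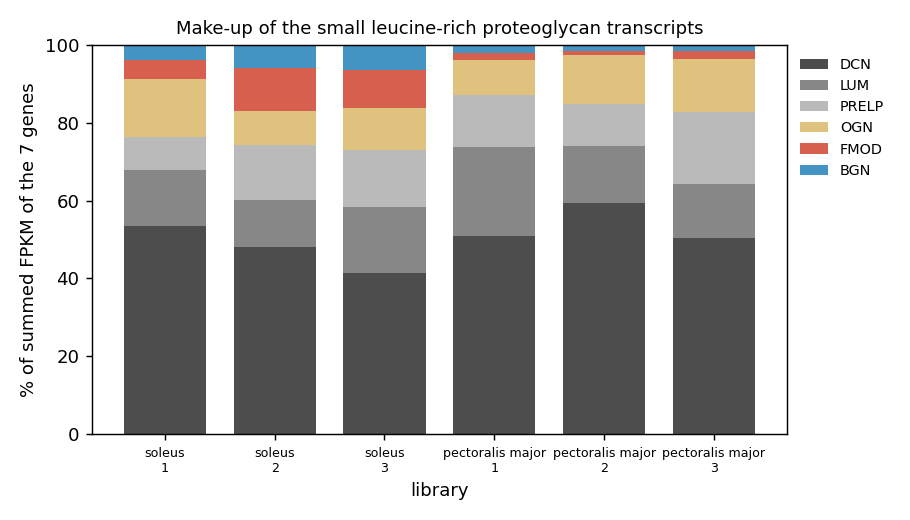
Share of each gene in the summed FPKM of the 7 genes, per library (KERA is too low to be seen). The red (FMOD) and blue (BGN) bands at the top of each bar are wide in the 3 soleus libraries and narrow in the 3 pectoralis major libraries, and DCN (dark grey) is the largest band in each.

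Of the summed FPKM, FMOD held 4.83, 11.0 and 9.74% in soleus libraries 1 to 3, against 1.63, 0.988 and 1.88% for pectoralis major. BGN held 5.51 ± 1.36% in soleus and 1.88 ± 0.305% in pectoralis major. The groups did not overlap for either share. DCN held 47.7 ± 5.95% and 53.6 ± 5.07%, LUM 14.4 ± 2.26% and 17.1 ± 4.96%, PRELP 12.4 ± 3.28% and 14.2 ± 3.76%, and OGN 11.5 ± 3.10% and 11.8 ± 2.47%, and the groups overlapped for each of these.

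Ratios between 2 members within a library do not move with library scaling, apart from the pseudocount of 1. With 3 libraries against 3, an exact permutation test (two-sided) cannot go below p = 0.1, so none of the 9 ratios compared could pass. The log2 ratio of FMOD to LUM was -0.80 ± 0.68 in soleus and -3.01 ± 0.43 in pectoralis major, a difference of 2.21 without overlap (exact p = 0.1, 0.18 when adjusted over the 9 ratios). That of FMOD to its chromosomal neighbour PRELP was -0.57 ± 0.23 and -2.76 ± 0.16, a difference of 2.19 without overlap (exact p = 0.1, adjusted 0.18). Thus FMOD and PRELP, which adjoin on chromosome 26, differed unequally between muscles in every pairing of a soleus with a pectoralis major library. The ratio of BGN to DCN was -3.04 ± 0.54 and -4.40 ± 0.27, a difference of 1.36 without overlap (exact p = 0.1, adjusted 0.18). That of FMOD to DCN differed by 2.15 without overlap (exact p = 0.1, adjusted 0.18), and that of BGN to OGN, which share the cluster on chromosome 12, by 1.26 with overlap (exact p = 0.2, adjusted 0.3). PRELP to LUM (difference 0.020, exact p = 0.9) and DCN to LUM, neighbours on chromosome 1 (0.062, exact p = 0.7), overlapped between muscles. The pairs FMOD to PRELP, FMOD to DCN, BGN to OGN, DCN to LUM and DCN to COL1A1 were chosen after the values were seen.

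**Figure D4:**
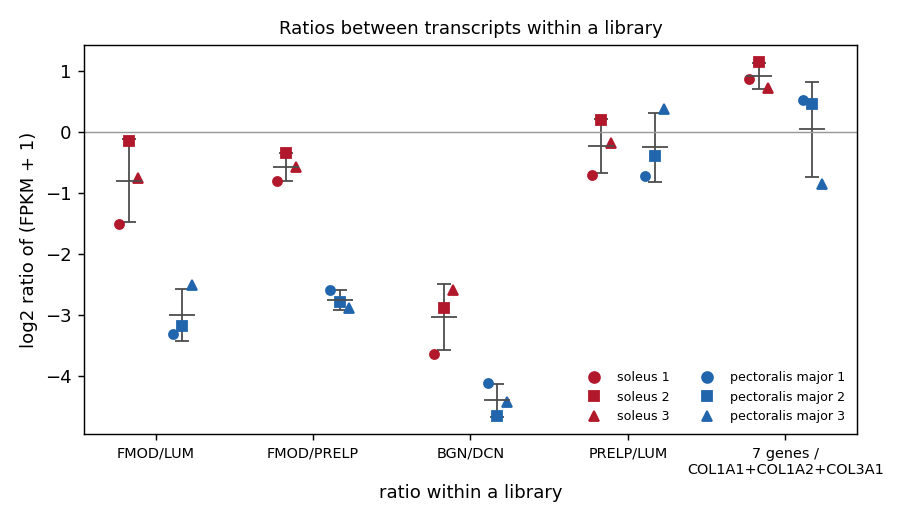
Log2 ratios of (FPKM + 1) within each library, with mean ± SD per muscle; the last column sets the 7 genes against the sum of COL1A1, COL1A2 and COL3A1. FMOD/LUM, FMOD/PRELP and BGN/DCN are higher in all soleus than in all pectoralis major libraries, PRELP/LUM overlaps, and pectoralis major library 3 is low in the last column at -0.85.

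Fibrillar collagen transcripts, whose products the family binds, did not follow FMOD and BGN. By mean FPKM over all 6 libraries COL3A1 came first of the 16 collagen and cross-linking genes in the table, at 65.0, 44.3 and 57.7 FPKM in the soleus libraries against 46.5, 46.0 and 137 in those of pectoralis major (log2 difference -0.27, limma adjusted p = 0.563). That place rests on pectoralis major library 3, since COL6A2, a chain of the microfibrillar collagen VI, was above COL3A1 in every soleus library (means 71.6 ± 10.1 and 55.7 ± 10.5 FPKM). COL1A1 (-0.22, limma adjusted p = 0.643) and COL1A2 (0.19, adjusted p = 0.636) did not pass either, and pectoralis major library 3 was the highest of all 6 for all 3 genes. Of the 14 genes tested, 4 were higher in soleus and 0 lower (median 0.31): COL12A1, a collagen on fibril surfaces of tendon and fascia (1.81), and the cross-linking oxidases LOXL4 (1.73), LOX (0.87) and LOXL1 (0.40). This was a smaller share than the 40% of all tested genes called higher, and the median of all was 0.26. Without pectoralis major library 3, 10 were called higher, and under median-ratio scaling 2, COL12A1 and LOXL4. Over all 9616 tested genes, 3572 were called higher without that library and 21.1% under that scaling. COL12A1 was at 0.216, 0.218 and 0.623 FPKM in the pectoralis major libraries, and LOXL4 rested on 4, 10 and 2 fragments there. Both genes were tested because of their soleus values alone, which favours a call of higher in soleus. With the replicate block, the oxidase LOXL2 was called too (0.54, limma adjusted p = 0.00663, and 0.0667 without the block). The log2 ratio of the summed family to COL1A1, COL1A2 and COL3A1 was 0.88, 1.15 and 0.72 in soleus and 0.52, 0.46 and -0.85 in pectoralis major, a difference of 0.87 (exact p = 0.1, adjusted 0.18 over the 9 ratios). Without pectoralis major library 3 that difference was 0.42. The ratio of DCN to COL1A1 differed by 0.80 (exact p = 0.3), and by 0.33 without that library.

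Within a muscle the members did not move as one. In soleus library 1, DCN, LUM and OGN had their highest values of the 3 soleus libraries, and FMOD, BGN and PRELP their lowest. On the log2(FPKM + 1) scale the deviations of that library from the soleus mean were 0.66 for OGN, 0.44 for DCN and 0.27 for LUM, against -0.43 for FMOD, -0.20 for PRELP and -0.16 for BGN. The tendon genes CHAD (37.7, 47.5 and 54.0 FPKM in soleus libraries 1 to 3) and COMP (76.7, 145 and 121) were also lowest in library 1, and COL1A1 (41.5, 20.7 and 31.2) was highest there. In pectoralis major library 3, FMOD (0.30), PRELP (0.44) and OGN (0.30) deviated upwards, and LUM (-0.19), BGN (-0.045) and DCN (-0.021) did not, although COL1A1, COL1A2 and COL3A1 peaked there. With 3 libraries per muscle these patterns are descriptions only.

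**Figure D5:**
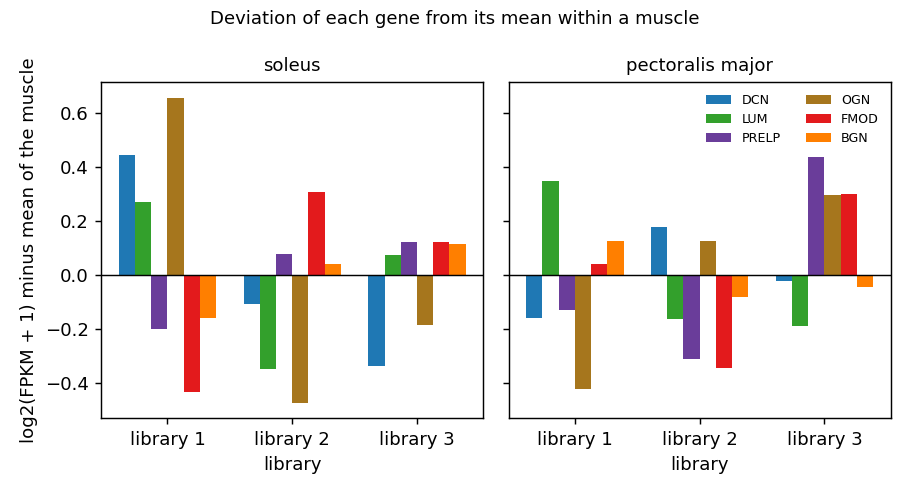
Deviation of log2(FPKM + 1) from the mean of the same muscle, for each tested gene in each library. DCN, LUM and OGN are above and FMOD, BGN and PRELP below their mean in soleus library 1, and in pectoralis major library 3 OGN, PRELP and FMOD are above.

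Other genes of the family and its relatives were measured too. Of 9 such genes in the table, 4 were tested, and 3 of these were higher in soleus (median 1.02), beside 40% of all tested genes (median 0.26). CHAD, chondroadherin, a leucine-rich repeat protein of cartilage and tendon matrix, averaged 46.4 ± 8.21 FPKM in soleus against 8.92 ± 4.12 (log2 difference 2.32). ECM2, the neighbour of BGN, had 8.75 ± 0.18 and 2.88 ± 0.46 FPKM (1.34), and TSKU, tsukushi, an inhibitor of BMP signalling, 4.50 ± 0.645 and 2.41 ± 0.518 (0.69). PODN, podocan, had 6.65 ± 0.883 and 5.73 ± 1.99 FPKM and did not pass (limma adjusted p = 0.386). The cartilage, bone and eye members EPYC, OMD, OPTC and NYX, and CHADL, stayed below 0.5 FPKM in every library. The neighbours thus took different levels in soleus: in the order ECM2, BGN, OMD and OGN on chromosome 12, the means were 8.75, 13.2, 0.102 and 29.0 FPKM.

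By the smallest root mean square difference between centred log2(FPKM + 1) profiles over the 6 libraries, among 5091 genes with a mean of at least 5 FPKM, the nearest to FMOD included CHRNG, a subunit of the fetal acetylcholine receptor (0.17), and HSPB7, a small heat shock protein (0.20). Nearest to BGN were ETFA, which passes electrons from fatty acid oxidation to the respiratory chain (0.042), GSTK1 (0.079) and EPN3 (0.097). This measure rests mostly on the difference between muscles, which many genes share.

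Markers of the cells that could hold these transcripts also differed between muscles. For all tested genes, 40% were called higher and 17.4% lower, with a median difference of 0.26. Of 14 fibroblast markers tested, 11 were higher in soleus and 0 lower (median 0.89), led by the microfibril gene MFAP5 (1.85), THY1 (1.44), the surface protease FAP (1.27) and the transcription factor PRRX1 (1.18), while COL3A1, COL1A1 and COL1A2 did not pass. Their summed FPKM was 308 to 331 in soleus and 148 to 377 in pectoralis major, the upper end being library 3. Of 7 tendon markers tested, 6 were higher (median 1.72), among them CHAD (2.32), CILP2 (2.23), COMP (1.75) and TNC (1.72), and CILP (0.12) did not pass; the sum was 159 to 241 FPKM in soleus and 60.8 to 93.1 in pectoralis major. SCX, the transcription factor that defines tendon cells, was at 1.83, 2.22 and 2.11 FPKM in the soleus libraries against 0, 0.0173 and 0.104. It was thus tested because of its soleus values alone. With a mean of at least 5 FPKM required, 2 tendon and 7 fibroblast markers were called higher, beside 1639 of 5099 tested genes. Of 9 cartilage markers 0 reached the level for testing; ACAN, aggrecan, averaged 0.0807 ± 0.0186 FPKM in soleus and each pectoralis major library listed it at 0, and SOX9, the most abundant, had means of 0.933 and 0.458. The gene CHAD is also among the relatives of the family above, and COL1A1, COL1A2 and COL3A1 among the collagens. The part of fibroblast and tendon cell numbers in the differences of FMOD, BGN and the other members was not tested.

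Markers of further cell types were higher in soleus as well, where 40% of all tested genes were called higher (median of all tested genes 0.26). All 8 endothelial genes were (median 0.98, summed FPKM 159.7 to 196 in soleus and 80.5 to 97.2 in pectoralis major), led by EGFL7 (1.27), CLDN5 (1.18), KDR (1.11) and PECAM1 (1.05), with VWF (0.72) the most abundant. All 6 smooth muscle and pericyte genes were (median 1.08, sums 308 to 439 and 146 to 219.7), among them SMTN (2.09), ACTA2 (1.20), MYH11 (1.19), TAGLN (0.98) and the abundant RGS5 (0.91). Of 9 leukocyte genes 8 were (median 1.00, sums 1022 to 1125 and 524 to 674), with LY86 (1.47), SPI1 (1.20), C1QB (1.10), C1QC (1.00) and CD74 (0.84), and CD3E (0.34) did not pass. All 7 adipocyte genes were (median 2.18, sums 351 to 426 and 90.1 to 94.1), led by PLIN1 (2.88), CIDEC (2.78), LPL (2.42) and FABP4 (2.18). All 6 Schwann cell genes were (median 0.97, sums 60.8 to 99.8 and 31.5 to 45.7), among them MBP (0.99), SOX10 (0.95) and PMP22 (0.67). Of 9 muscle fibre genes, the slow or oxidative fibre genes MYL3, TNNI1, MYL2, MYH7B and MB (5 genes) were higher and the fast or glycolytic ones MYH1E, LDHA and TNNT3 (3 genes) lower. ACTA1, the skeletal actin and most abundant, did not pass, with 38242 ± 3221 and 39448 ± 6474 FPKM. The part of these cell types in the members' differences was not tested. Under median-ratio scaling the counts called higher were 5 for fibroblast, 6 for tendon, 5 for endothelial, 4 for smooth muscle, 7 for leukocyte, 7 for adipocyte and 4 for Schwann cell genes, with 0 lower in each. That scaling called 21.1% of all tested genes higher and 29.5% lower. With a mean of at least 5 FPKM required, the counts called higher were 7 for endothelial, 5 for smooth muscle and 6 for leukocyte genes. They were 6 for adipocyte and 2 for Schwann cell genes, with 0 lower in each of these lists. That setting tested 5099 genes rather than 9616, and called 1639 of them higher.

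A list of genes for glycosaminoglycan chain synthesis and for sulfation, not all of them chain enzymes, held 22 tested genes. Of these, 13 were higher and 0 lower (median 0.42), beside 40% of all genes called higher. The 13 include DSE, CHST3, PAPSS2 and B4GALT1, which were below 1 FPKM in every pectoralis major library and so were tested because of soleus alone. With a mean of at least 5 FPKM required, 1 was called higher and 0 lower, beside 1639 and 1321 of 5099 tested genes. Quantile normalization gave 5 higher and 1 lower, beside 2244 and 2285 of all tested genes. The largest differences were those of PAPSS1, which makes the sulfate donor (0.96), and of the chondroitin chain enzymes CSGALNACT2 (0.89), CHPF (0.80) and CHSY1 (0.80). UGP2, which supplies the UDP-glucose from which chain sugars derive, was the most abundant and did not pass (179 ± 130.1 and 210.4 ± 53.2 FPKM, limma adjusted p = 0.401). Under median-ratio scaling, 6 of the 22 were called higher and 4 lower, namely the chain enzymes XYLT2 (-0.39), B4GALT7 (-0.61), CHPF2 (-0.62) and CHST2 (-0.39). In that setting 21.1% of all tested genes were called higher and 29.5% lower.

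Of 22 tested genes of the transforming growth factor beta and BMP axis, which decorin, biglycan and asporin are known to bind or modulate, 15 were higher in soleus and 0 lower (median 0.65). With the replicate block 17 were, the ligand TGFB1 (0.33, limma adjusted p = 0.0472, and 0.0636 without the block) and LTBP1, which binds latent ligand (0.44, adjusted p = 0.0292, and 0.0702 without it), being added. Over all tested genes, 40% were called higher in the main fit (median 0.26) and 43.8% with the block. TGFBI, a matrix protein induced by the pathway (1.62), MSTN, myostatin (1.34), the ligand TGFB3 (1.24) and the pathway target CCN2 (0.95) had the largest differences. TGFB3 was also the most abundant, averaging 68.0 ± 13.9 FPKM in soleus against 28.6 ± 8.23. Under median-ratio scaling 8 were called higher and 1 lower, the receptor ACVR2A (-0.32), beside 21.1% and 29.5% of all tested genes. Of 15 tested surface receptors and partners of decorin and biglycan, 11 were higher and ERBB4, a receptor of the EGF receptor family, was lower (-0.88). The sarcoglycan SGCA, whose product biglycan binds in mammals (1.24), KDR (1.11, also an endothelial marker), CD44 (1.06) and the most abundant, the integrin chain ITGB1 (0.87), were higher. The median was 0.60, and under median-ratio scaling 8 were called higher and ERBB4 lower. For these too, 40% of all tested genes were called higher in the main fit and 21.1% under that scaling.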

How the data were processed

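RNA-seq libraries of soleus and pectoralis major (3 each) were compared. The authors deposited 1 table of FPKM values; tools named per the submitters' processing notes are Cufflinks, R 3.2.0, HTSeq and HISAT2, with build GRCg6a. Other versions, filters and strand use: not given in the sources used here.

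All 18239 gene numbers matched the RefSeq gene table of GRCg7b, which differs from that build. It was used for names, gene order, the overlaps of gene spans and the choice of mitochondrially encoded genes. From it 10 symbols read as dates were restored. Within a relative tolerance of 1e-06, 100% of the 94897 values above 0 were whole multiples of 1 fragment, the smallest whole numbers giving the fragments per gene. A gene above 0 in only 1 library meets this by construction, and counts that share a common factor come out too low. Totals were those at which gene lengths came out whole for 99.25% of 400 genes. From whole fragments and whole lengths, 98.5% of the values above 0 were rebuilt. The lengths were derived from the same fragments, so the rebuilding cannot show a lost common factor.

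Genes with at least 1 FPKM in at least 3 of 6 libraries were tested with limma 3.58.1 (R 4.3.3; variance trend, two-sided) on log2(FPKM + 1), Benjamini-Hochberg adjusted at 0.05. Python 3.11.15 with pandas 2.3.3, scipy 1.17.1 and matplotlib 3.10.9 did the rest. Steps and test were tried on simulated data. For the test, few genes were changed, equally often up and down, and without pairing. Here 57.3% of tested genes were called, so that trial does not show how the test behaves in these data. Same-numbered libraries of the muscles deviated together (correlations of deviations 0.398, 0.445 and 0.367, other pairs -0.301 to -0.128). The numbers may thus pair the samples, although the labels do not say what they share. The main fit, its intervals and the exact tests of ratios did not use this pairing. The fit with the replicate number as a block is an alternative.

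Members, lists and tests were chosen with earlier results of these data known. Named from each list were the 4 called genes of largest absolute difference, the most abundant gene, any gene a count of 5 or fewer refers to, and, for called members of at least 2-fold, the 3 genes of nearest profile; others were named after their values were seen. Some genes that this rule selects are not reported here. Intervals and limits from fragment counts cover counting error only.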

Additional observations from a re-analysis of the deposited data

How the results depend on the processing

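FMOD and BGN were called higher in soleus in all 15 alternatives run, with differences of 2.40 to 3.23 for FMOD and 1.61 to 2.29 for BGN. The upper ends come from a fit to fragment counts (voom), which is on another scale. On log2(FPKM + 1) the differences were 2.40 to 2.97 for FMOD and 1.61 to 2.17 for BGN. No member was called lower in any alternative. Members called higher were 4 in the main fit, 2 with no filter on low values, under median-ratio scaling and without soleus library 1, and 6 with the replicate block. Over all tested genes, 3844 of 9616 were called higher in the main fit and 4326 of 18239 with no filter. Of 9616 tested genes, 2026 were called higher under median-ratio scaling, 3157 without soleus library 1 and 4207 with the block. DCN (0.58) and PRELP (0.54) did not pass with no filter, a fit over 18239 genes (limma adjusted p = 0.0919 and 0.108). Their unadjusted limma p rose there as well, from 0.0193 and 0.0268 to 0.0366 and 0.0454. Nor did DCN and PRELP pass under median-ratio scaling (0.19 and 0.16), and PRELP (0.56) did not under quantile normalization (adjusted p = 0.0532). LUM and OGN passed with totals taken without mitochondrially encoded genes (0.74 and 0.90) and with the replicate block (0.52 and 0.68), which ended no member's call. With each library left out, differences ranged from 0.36 to 0.75 for DCN, 0.38 to 0.76 for PRELP, 0.38 to 0.69 for LUM and 0.35 to 0.91 for OGN, and members called from 2 to 4. In those fits 3157 to 3597 of all tested genes were called higher. Genes called higher numbered 3844 of 9616 tested, and 1639 of 5099 tested with a mean of at least 5 FPKM. They numbered 2026 under median-ratio scaling, 2244 under quantile normalization and 5021 (of 9603 tested) with totals taken without mitochondrially encoded genes. Genes called lower numbered 1670 in the main fit, and 2837 under median-ratio scaling. Of the genes in the lists, the block added calls for LOXL2, TGFB1 and LTBP1 and ended none. With a mean of at least 5 FPKM, 2 genes of the collagen list and 10 of the transforming growth factor beta list were called higher. In that setting 6 receptors and partners and 6 proteases and inhibitors were called higher, with 0 lower in each of these lists. The cause of these changes between settings was not tested. The small ratio differences changed sign with libraries left out: PRELP to LUM ranged from -0.22 (without pectoralis major library 1; -0.19 and -0.0032 without soleus library 2 or 3, -0.055 without pectoralis major library 2) to 0.33, and DCN to LUM was -0.025, -0.058 and -0.19 without soleus library 1, soleus library 2 or pectoralis major library 1, and at most 0.27. Depth limits only KERA among the members.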

Other observations

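Proteases and inhibitors that act on the matrix around these proteoglycans also differed between muscles. Of 10 tested, 8 were higher in soleus and 0 lower (median 0.61), beside 40% of all tested genes called higher (median 0.26). TIMP4, an inhibitor of matrix metalloproteinases, averaged 34.9 ± 9.17 FPKM in soleus against 3.85 ± 1.69 (log2 difference 2.91), and the collagen-degrading cathepsin CTSK (1.42), the serine protease HTRA1 (1.36) and PCOLCE2, which enhances procollagen processing (1.20), followed. TIMP3, the most abundant, had 59.5 ± 8.11 and 46.2 ± 4.96 FPKM and did not pass (limma adjusted p = 0.0646). Under median-ratio scaling 5 were called higher: TIMP4, CTSK, HTRA1, PCOLCE2 and ADAMTS2 (0.36), which trims procollagen. Of all tested genes, 21.1% were called higher in that setting.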
